A study of Mus musculus with 24 samples.

Results

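Genes for the attachment and the removal of ubiquitin were followed across 4 treatment groups in the medial prefrontal cortex of mice. Members were the protein-coding genes whose symbol starts with Ube2, Ube3, Ube4, Uchl or Otud, or with Usp or Ubr and a digit. The rule used names only and no measured value, and it took 101 of the 15456 genes in the table. They were 33 Ube2 genes, called E2 enzymes here, 11 ligase genes (3 Ube3, 2 Ube4 and 6 Ubr) and 57 deubiquitinase genes (47 Usp, 3 Uchl and 7 Otud). A symbol is not always a function. Ube2m and Ube2f serve NEDD8, Ube2l6 and Usp18 serve ISG15, Ube2v1 and Ube2v2 are variants without catalytic activity, Usp39 is a splicing factor, Ube2cbp is named for binding an E2 enzyme, and Usp6nl is a GTPase-activating protein.

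Ubiquitin is activated by an E1 enzyme, passed to an E2 enzyme, and joined with the help of a ligase to a substrate, which is then degraded by the proteasome, moved within the cell or altered in activity. Deubiquitinases of the Usp, Uchl and Otud families remove ubiquitin or trim its chains. In neurons this traffic takes part in synaptic remodelling and protein turnover, and Uchl1 is known as an abundant neuronal protein.

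The 24 mice were male BALB/c OlaHsd animals labelled as 11 weeks of age, with 6 in each group. Controls, labelled as untreated, received PBS by injection and by gavage in the study's methods. The duloxetine group received this serotonin and noradrenaline reuptake inhibitor by daily injection, the R. flavefaciens group received the gut bacterium Ruminococcus flavefaciens by gavage, and the last group received both treatments. RNA came from tissue punches that hold neurons and glia, so fewer cells of a type and less RNA per cell cannot be told apart in any value given here. The depth recovered from the table ran from 12811413 to 15607343 reads per mouse, with a median of 14455107. Controls had a median of 13591497 reads, against 14536037 with duloxetine, 13943370 with R. flavefaciens and 14621656 with both treatments.

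A pair of R. flavefaciens libraries stood apart from the others, and they are named here by the numbers of their labels, whose meaning the labels do not give. Mouse 9_3 had the lowest mean correlation with the other mice (0.9836), and its deviations from the gene means fell with transcript length (Spearman's rho of -0.58 across genes, which are not independent replicates). Mouse 8_4 had a summed level of 825 normalized counts over the choroid plexus markers, where the other R. flavefaciens mice had at most 123, and 5100 over the striatal markers, where the others had at most 2274. The calls among members against R. flavefaciens and the counts at an unadjusted p with R. flavefaciens are given with and without both. Mouse 7_2 of the same group had a rho of -0.32 with length (mouse 8_4 had -0.24) and a mean correlation of 0.9874 (mouse 8_4 had 0.9870), and it is kept in the values without 8_4 and 9_3.

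Levels per kilobase of transcript spread widely within each family. Uchl1, the ubiquitin hydrolase of neurons, was the highest member, with 6246 normalized counts per kb averaged over 24 mice, and Uchl5, which binds the proteasome, was next among the Uchl and Otud genes with 288 per kb. Among E2 enzymes, Ube2ql1, a relative of the Ube2q enzymes, stood at 1294 per kb and Ube2m, the NEDD8-conjugating enzyme, at 1189 per kb. Among Usp genes, Usp5, which takes apart free chains, reached 975 per kb and Usp22, the deubiquitinase of the SAGA complex, 880 per kb. The highest ligases were Ubr3, with 452 per kb, and Ube3b, with 354 per kb. The median level was 335 per kb for E2 enzymes, 246 for ligases, 195 for deubiquitinases and 92 for all 14974 genes tested. At the low end, Usp18 had a mean of 8.527 normalized counts, under the minimum of 10 for testing, so 100 members were tested. Usp18 had 4.24 to 12.5 (median 6.62) normalized counts in controls, 4.07 to 8.87 (median 5.83) with duloxetine, 4.22 to 15.3 (median 9.25) with R. flavefaciens and 4.85 to 16.5 (median 11.4) with both treatments, and all groups overlapped.

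**Figure D1:**
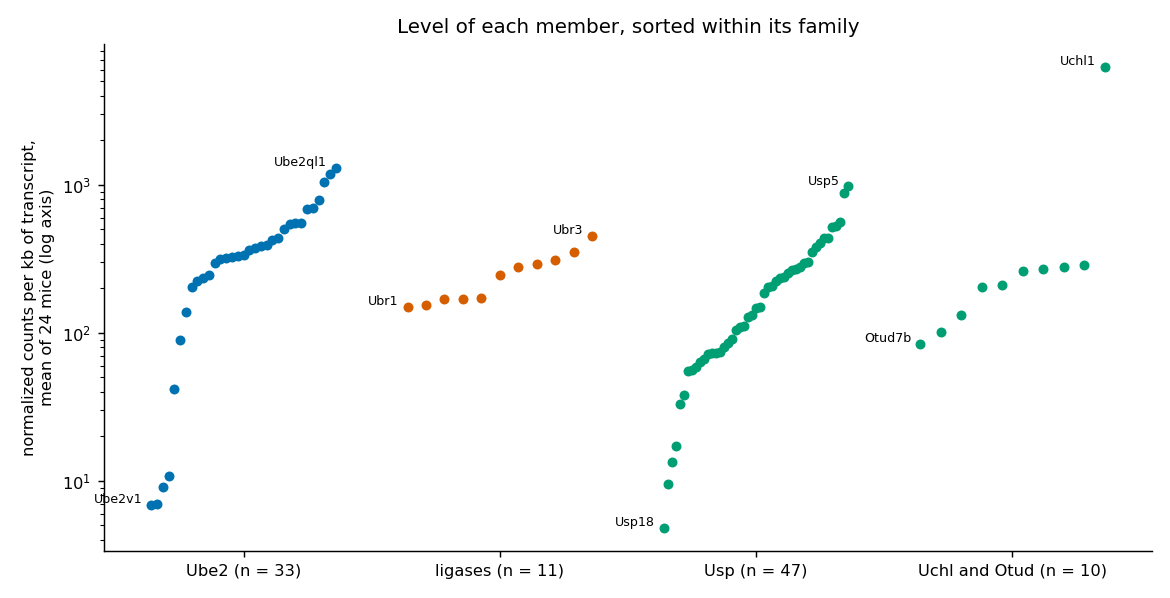
Mean normalized counts per kb of transcript over 24 mice, on a log axis, for each of the 101 members by family. Uchl1 stands highest at 6246 per kb, and Usp18 lies at the low end with 4.81 per kb.

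With an adjusted p under 0.05 in limma as the call, 4 members were called in any comparison of the main fit. All 4 were deubiquitinases, as were 56 of the 100 members tested. Each was called in both treatments against R. flavefaciens, where 2.23% of all genes were called. The main fit holds all mice in 4 groups, with no length or GC trend removed and no block or covariate. The bases just before Otud1 and Usp21, the 2 called lower, and before Usp40, which was called higher, are shown here. None are shown for Usp48. Each stretch holds 200 bases of RefSeq sequence (GRCm38.p6), 5′ to 3′ on the strand of the gene. Capitals mark the motifs found by a search of both strands, which took GGGCGG for the GC box and the letters of its name for the CCAAT box. It also took TATAAA for the TATA box, TGACGTCA for the cAMP response element and CACGTG for the E box.
Otud1, chr2:19657531-19657730, plus strand: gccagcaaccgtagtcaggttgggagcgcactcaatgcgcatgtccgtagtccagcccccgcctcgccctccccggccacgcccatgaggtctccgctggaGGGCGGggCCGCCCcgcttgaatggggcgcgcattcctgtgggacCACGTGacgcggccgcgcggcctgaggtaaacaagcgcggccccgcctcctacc
Usp21, chr1:171287992-171288191, minus strand: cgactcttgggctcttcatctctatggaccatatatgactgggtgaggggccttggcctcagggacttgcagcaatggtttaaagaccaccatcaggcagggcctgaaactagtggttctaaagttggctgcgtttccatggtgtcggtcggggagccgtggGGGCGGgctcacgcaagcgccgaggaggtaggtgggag
Usp40, chr1:88008552-88008751, minus strand: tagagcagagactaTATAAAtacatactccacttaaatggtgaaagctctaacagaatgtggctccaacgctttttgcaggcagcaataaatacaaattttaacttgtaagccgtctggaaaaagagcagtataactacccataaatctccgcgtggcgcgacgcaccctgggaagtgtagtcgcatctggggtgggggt

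The Otud1 stretch held 2 GC boxes and 1 E box in 71.5% G and C, the Usp21 stretch 1 GC box in 58.5%, and the Usp40 stretch 1 TATA box in 45%. The TATAAA of Usp40 lies near the 5′ end of its stretch, far from the start of the gene. Of 27025 promoters in the RefSeq table, 31.3% held a GC box in a stretch of this length, 5.28% an E box, 10.6% a TATA box, 30% a CCAAT box and 1.55% a cAMP response element. Among the 80 of 101 members that matched an entry, the shares were 73.8%, 10%, 3.75%, 20% and 2.5%. In the order of the motifs above, these are for the GC, E, TATA and CCAAT boxes and the cAMP response element. The 27025 promoters were not limited to protein-coding genes of this series, as the members are, so they are not a matched background. Motif matches describe letters and not bound sites.

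Otud1 (ENSMUSG00000043415.5, GRCm38, chr2:19657752-19660583, plus strand), an OTU-family deubiquitinase known from immune signalling, was the only member called in more than 1 comparison of the main fit. It had 573 to 727 (median 636) normalized counts in controls, 474 to 609 (median 550) with duloxetine, 593 to 697 (median 642) with R. flavefaciens and 416 to 571 (median 479) with both treatments. All 6 mice given both treatments therefore lay below all 6 controls and all 6 R. flavefaciens mice, while the duloxetine mice overlapped with every other group. Against control, Otud1 fell with both treatments by 0.40 on the log2 scale (SE 0.0734, limma adjusted p = 0.0188, exact permutation p = 0.00216). It was the 1 member called in this comparison, in which 0.1% of all genes tested were called. Here and in the other comparisons, the exact permutation p is two-sided over all regroupings of 12 mice into 6 and 6, and 0.00216 is the smallest it can take. The call was lost in 5 of 24 fits that each left out 1 mouse (controls 2_1 or 3_1, or 10_2, 11_3 or 12_2 of the mice given both), with an adjusted p of up to 0.0988.

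The same gene fell with both treatments against R. flavefaciens, by 0.40 on the log2 scale (SE 0.0734, limma adjusted p = 0.00943, exact permutation p = 0.00216), and the call held in 24 of 24 fits without 1 mouse. It was lost with only these 12 mice in the limma fit, which gave -0.40 (limma adjusted p = 0.07). Averaged over mice with and without bacteria, the main effect of duloxetine on Otud1 was a fall by 0.32 (SE 0.0519, limma adjusted p = 0.0043), the only call among members where 1.03% of all genes were called, and it held in 24 of 24 fits. These comparisons share mice and are not separate evidence. Duloxetine alone gave a log2 fold change of -0.23 (SE 0.0734, limma adjusted p = 1, exact permutation p = 0.0108), and R. flavefaciens alone gave -0.0013 (SE 0.0734, limma adjusted p = 0.994, exact permutation p = 0.983). The interaction of the treatments on Otud1 was -0.16 (SE 0.104, limma adjusted p = 0.683), so a difference between the duloxetine effects with and without bacteria was not shown.

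Both treatments against R. flavefaciens called 4 members, 2 lower and 2 higher, in a comparison that called 2.23% of all genes. Beside Otud1, the lower member was Usp21 (ENSMUSG00000053483.13, GRCm38, chr1:171281945-171287991, minus strand), a deubiquitinase known to act on histones. Usp21 had 547 to 600 (median 571) normalized counts with R. flavefaciens and 431 to 541 (median 483) with both treatments, without overlap. Controls had 503 to 571 (median 557) and duloxetine mice 488 to 558 (median 524). The log2 fold change of Usp21 was -0.24 (SE 0.0564, limma adjusted p = 0.025, exact permutation p = 0.00216), called in 22 of 24 fits without 1 mouse and lost without 11_3 or 12_2 (adjusted p up to 0.0795). Groups without overlap were seen for these 2 lower members and for no higher member, where 0.828% and 0.614% of all genes were lower and higher without overlap.

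Usp48 (ENSMUSG00000043411.15, GRCm38, chr4:137593755-137658537, plus strand), a nuclear deubiquitinase linked to NF-kB signalling, rose in this comparison. Its normalized counts were 1006 to 1488 (median 1215) with R. flavefaciens, 1419 to 1626 (median 1476) with both treatments, 1238 to 1415 (median 1351) in controls and 1153 to 1485 (median 1411) with duloxetine. Every mouse given both treatments stood above every control, whereas mouse 8_4 of the R. flavefaciens group, its highest, lay within their range. The log2 fold change against R. flavefaciens was 0.29 (SE 0.0701, limma adjusted p = 0.03, exact permutation p = 0.00866), called in 18 of 24 fits and lost without 7_2, 9_1, 9_3, 11_3, 12_2 or 12_3 (adjusted p up to 0.0867). Against control it was 0.16 (SE 0.0701, limma adjusted p = 0.264, exact permutation p = 0.00216).

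Usp40 (ENSMUSG00000005501.14, GRCm38, chr1:87945119-88008551, minus strand), a little studied Usp gene, rose as well. It had 130 to 159 (median 141) normalized counts with R. flavefaciens, 150 to 219 (median 194) with both treatments, 141 to 178 (median 159) in controls and 148 to 219 (median 161) with duloxetine. All groups overlapped. The log2 fold change against R. flavefaciens was 0.39 (SE 0.102, limma adjusted p = 0.0417, exact permutation p = 0.00649), called in 16 of 24 fits and lost without 7_2, 8_3, 9_1, 9_3, 11_3, 11_4, 12_2 or 12_3 (adjusted p up to 0.119). Exons of Usp40 share 62 bases with Dgkd on the opposite strand, and whether the counting used strand is not given in the sources used here, so reads from the shared bases may not be told apart.

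With only the 12 mice of this comparison in the limma fit, 0 members, Otud1 included, and 0% of all genes were called. DESeq2 on those 12 mice called 3 members, Otud1, Usp40 and Usp48, and 1.47% of all genes. Without mice 8_4 and 9_3, 4 members were again called against R. flavefaciens, where 3.08% of all genes were called, but only Otud1 and Usp48 were among the 4 called with all mice. Usp21 then had -0.21 (limma adjusted p = 0.0588) and Usp40 0.38 (limma adjusted p = 0.066). The calls gained were Ube2ql1, with -0.20 (limma adjusted p = 0.0254), and Usp27x, an X-linked deubiquitinase named here after its values were seen, with -0.38 (limma adjusted p = 0.0366). With the trend on transcript length removed, Otud1 and Usp21 were called, and Usp48 (limma adjusted p = 0.0576) and Usp40 (limma adjusted p = 0.0507) were not, where 1.98% of all genes were called. With a trend on G and C content removed, Otud1 and Usp48 were called and Usp21 and Usp40 were not, where 1.67% of all genes were called. Entering the log2 depth of each mouse as a covariate left 3 calls, Otud1, Usp48 and Usp27x, with 1.46% of all genes. With all mice, edgeR called 4 members and 2.18% of all genes, DESeq2 8 and 4.07%, and a limma adjusted p under 0.1 gave 11 and 5.62%.

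**Figure D2:**
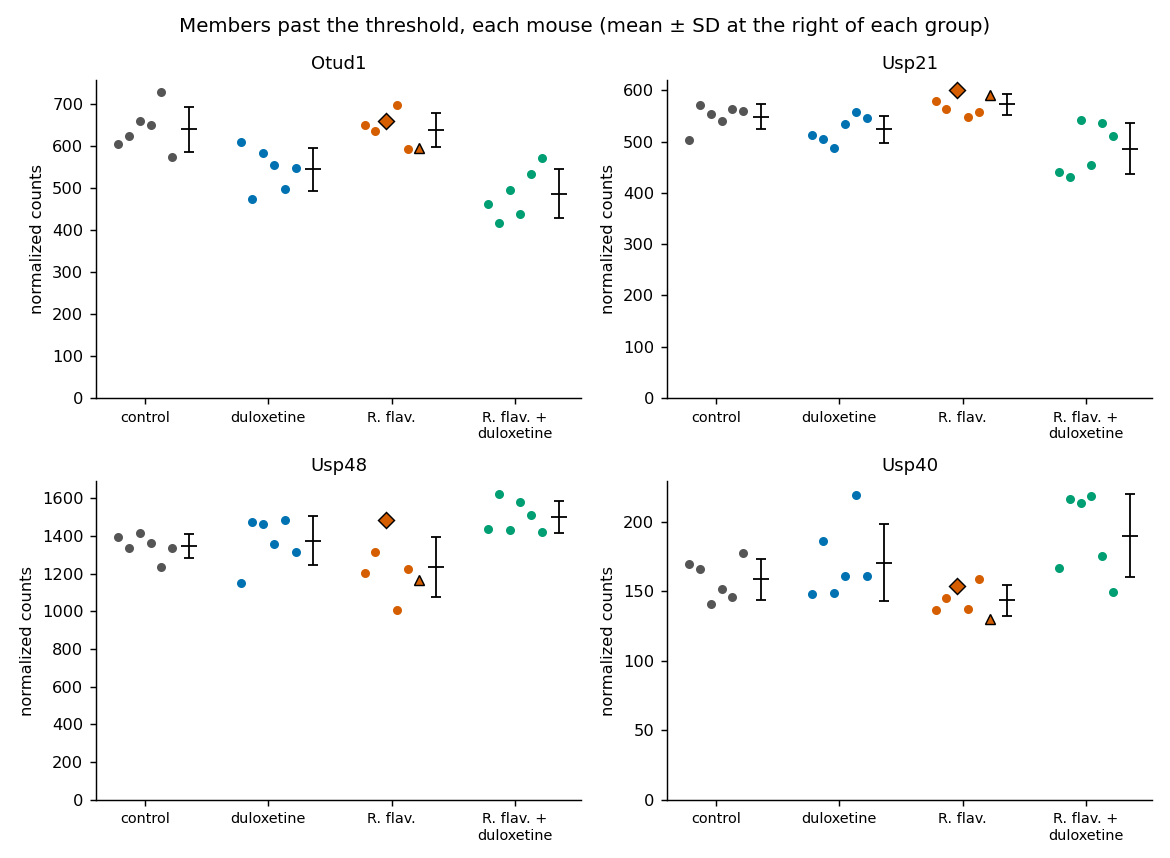
Normalized counts of the 4 called members in each of 24 mice, with 1 point per mouse and the mean ± SD of each group (n = 6); separate symbols mark R. flavefaciens mice 8_4 and 9_3. The 6 mice given both treatments lie at 416 to 571 for Otud1, below all R. flavefaciens and control mice.

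R. flavefaciens against control called 0 members by limma, where 0.0267% of all genes were called, and 0 by edgeR. DESeq2 called 6 members, all lower (Usp34, Usp9x, Ubr1, Usp7, Ubr4 and Usp8), where it called 3.32% of all genes, and with only the 12 mice compared it called 0 members and 0.381% of all genes. Usp7, known for acting on p53 and its ligase, and Usp8, which acts at endosomes, are named in this comparison after their values were seen. At a limma adjusted p under 0.1 there were 5 members, against 3.87% of all genes. At an unadjusted limma p under 0.05, 21 members were lower and 4 higher, against 10.8% and 8.86% of all genes. The lower ones were 7 of 11 ligases and 14 of 46 Usp genes, and the higher ones were E2 enzymes.

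Usp34 (ENSMUSG00000056342.16, GRCm38, chr11:23306895-23490560, plus strand), a very large deubiquitinase linked to Wnt signalling, had 2580 to 2856 (median 2718) normalized counts in controls and 1350 to 2483 (median 2285) with R. flavefaciens. Usp9x (ENSMUSG00000031010.17, GRCm38, chrX:13071498-13173328, plus strand), an X-linked deubiquitinase needed in neuronal development, had 6578 to 7274 (median 6920) in controls and 4006 to 6540 (median 6016) with R. flavefaciens. Neither gene's groups overlapped, and mouse 9_3 was lowest for both. The log2 fold change was -0.39 for Usp34 (SE 0.0993, limma adjusted p = 0.0727, exact permutation p = 0.00216) and -0.32 for Usp9x (SE 0.0844, limma adjusted p = 0.073, exact permutation p = 0.00216). Both were called, and no other member, when mice that share the first label number were given a random block. That fit called 1.48% of all genes, against 0.0267% in the main fit. The correlation it used was negative (-0.0451) and the first numbers lie within groups. The block therefore lowered the standard errors of group differences and was not a stricter test. With depth as a covariate 3 members were called, Usp34, Usp9x and Usp8, all lower, and 1.35% of all genes. Exons of Usp34 share 2137 bases with Ahsa2 on the opposite strand, with the same uncertainty as for Usp40.

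The ligases with the smallest p-values were Ubr1 and Ubr4, which recognise N-terminal residues of proteins to be degraded. Ubr4 (ENSMUSG00000066036.14, GRCm38, chr4:139352609-139489588, plus strand) had 4760 to 5386 (median 4980) normalized counts in controls and 2640 to 4647 (median 4397) with R. flavefaciens, without overlap, and a log2 fold change of -0.32 (SE 0.0964, limma adjusted p = 0.0924, exact permutation p = 0.00216). Ubr1 had 1192 to 1287 (median 1264) and 794 to 1232 (median 1098), which overlapped, and -0.25 (SE 0.0728, limma adjusted p = 0.0806, exact permutation p = 0.00649). Groups without overlap were thus seen for 4 members, all lower and among them Usp34, Usp9x and Ubr4, where 0.835% of all genes were lower without overlap, and for 0 higher members, where 0.788% of all genes were. Of these genes Ubr4 shares 109 exon bases with Emc1 on the same strand and Ubr1 308 with AV039307 on the opposite strand.

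On the higher side the smallest p-values belonged to E2 enzymes. Ube2s, which extends chains for the anaphase-promoting complex, averaged 651 ± 29.3 (SD, n = 6) normalized counts in controls and 733 ± 76.9 with R. flavefaciens, with a log2 fold change of 0.16 (SE 0.0565, limma adjusted p = 0.121, exact permutation p = 0.026). With mice 8_4 and 9_3 left out, Ube2s had 0.11 (limma adjusted p = 0.572). Ube2e2 had 0.11 (limma adjusted p = 0.19). Ube2g2 and Ube2j2, enzymes of protein degradation at the endoplasmic reticulum, had 0.11 (limma adjusted p = 0.239) and 0.13 (limma adjusted p = 0.243). Ube2s shares 183 exon bases with Rpl28 on the opposite strand.

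When mice 8_4 and 9_3 were left out, 0 members were called, and 8 were lower and 3 higher at an unadjusted p under 0.05, against 4.86% and 4.29% of all genes. The log2 fold changes were then -0.20 (limma adjusted p = 0.391) for Usp34, -0.16 (limma adjusted p = 0.455) for Usp9x, -0.18 (limma adjusted p = 0.459) for Ubr4 and -0.13 (limma adjusted p = 0.507) for Ubr1. All 4 kept their sign and were smaller in size. Among fits without 1 mouse of this group, 0 members were called without 7_2, 8_4 or 9_3, where 0.0134%, 0.0134% and 0% of all genes were called. There were 6 without 8_3 (2.85% of all genes), 6 without 9_2 (4.11%) and 3 without 9_1 (1.6%).

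**Figure D3:**
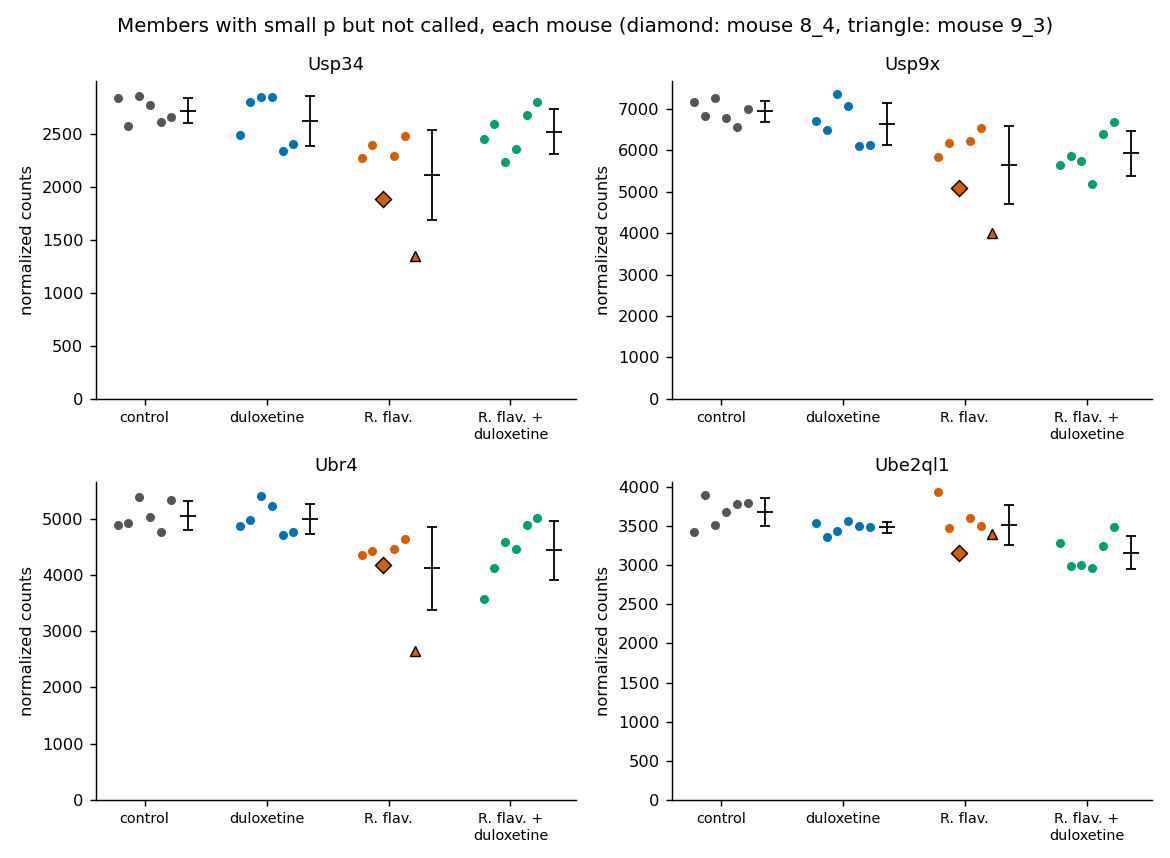
Normalized counts of Usp34, Usp9x, Ubr4 and Ube2ql1, which limma did not call in the 4-group fit of all mice with no block or covariate, in each of 24 mice, with 1 point per mouse and the mean ± SD of each group (n = 6); separate symbols mark R. flavefaciens mice 8_4 and 9_3. Mouse 9_3 is the lowest of its group for Usp34, Usp9x and Ubr4 (2640 normalized counts for Ubr4).

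Fold changes of members followed transcript length in this comparison. Spearman's rho between log2 fold change and length was -0.64 across the 100 members and -0.49 across all genes tested, as a description of genes measured in the same 12 libraries. The 14 members with transcripts under 2000 bases had a median log2 fold change of 0.06 (all genes of that length 0.11). The 11 members of 8000 bases or more had -0.19 (all genes -0.17), with 11 of 11 lower, where 806 of all 898 genes of that length were lower. Without mice 8_4 and 9_3, rho was -0.55 across members and -0.31 across all genes, and 10 of the 11 long members were lower, with a median of -0.13. Of all 898 genes of that length 750 were then lower, with a median of -0.084.

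The classes differed in length, with a median of 2674 bases for E2 enzymes, 4716 for deubiquitinases and 7633 for ligases, against 3191 over all genes tested. With the length trend removed, the median log2 fold change with R. flavefaciens moved from -0.12 to -0.043 for ligases, from -0.062 to -0.015 for deubiquitinases, and from 0.029 to -0.0015 for E2 enzymes. The counts at an unadjusted p under 0.05 were then 9 lower and 4 higher members, against 6.12% and 5.22% of all genes, and 0 members were called, against 0.00669% of all genes.

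Both treatments against R. flavefaciens, which shares the R. flavefaciens mice with that comparison, had a rho of 0.57 across members and 0.26 across all genes. Without mice 8_4 and 9_3 these values were 0.33 and 0.0069. At an unadjusted p under 0.05, 14 members were lower and 12 higher, against 9.9% and 9.76% of all genes. Leaving out mice 8_4 and 9_3 they were 16 lower and 7 higher, against 10.5% and 9.76%, and with the length trend removed 15 lower and 8 higher, against 9.69% and 9.05%. With all mice the lower ones were 7 E2 enzymes and 7 deubiquitinases, and the higher ones 11 deubiquitinases and 1 ligase.

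**Figure D4:**
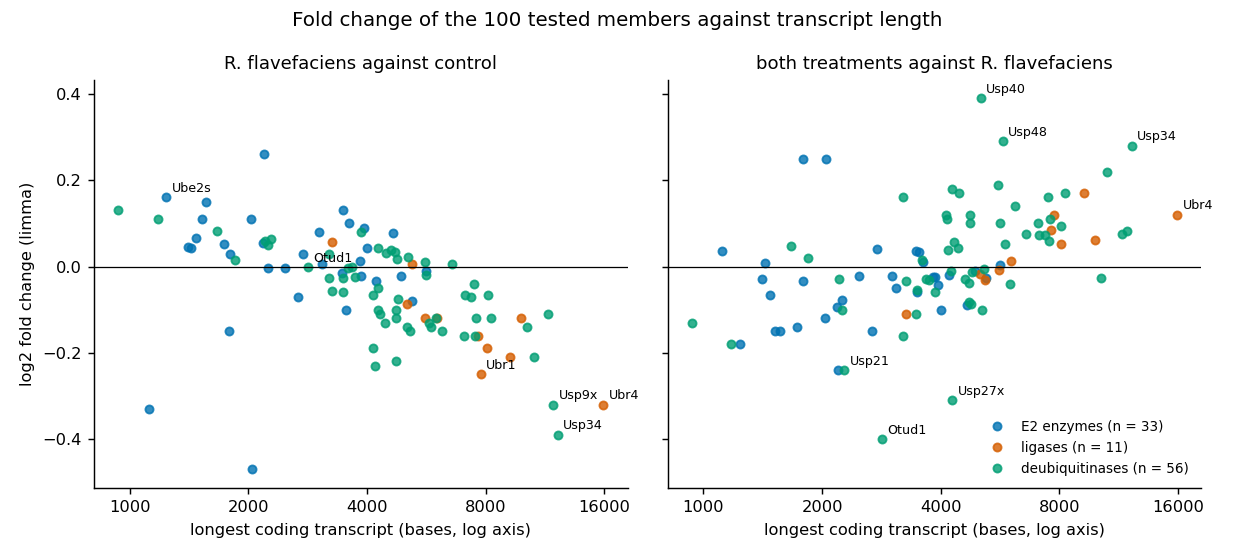
Log2 fold change in limma (vertical axis) against transcript length in bases (horizontal log axis) for the 33 E2 enzymes, 11 ligases and 56 deubiquitinases tested. Longer members lie lower in R. flavefaciens against control (rho -0.64), and the slope is the other way in both treatments against R. flavefaciens (rho 0.57).

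Both treatments against control left 67 of 100 members lower, where 49.8% of all genes tested were lower. With mice rescaled to a common 75th percentile the split was 54 lower and 46 higher, and with quantile normalization 57 and 43, where 40.3% and 52% of all genes were lower. At an unadjusted p under 0.05, 15 members were lower and 4 higher, against 8.73% and 8.08% of all genes. With the 75th percentile rescaling these were 7 lower and 8 higher members, against 4.98% and 11.3% of all genes, and with quantile normalization 7 lower and 5 higher, against 6.6% and 6.87%. Groups without overlap were seen for 1 lower member, Otud1, and 1 higher member, Usp48, where 1.16% and 0.882% of all genes were lower and higher without overlap.

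Ube2ql1 (ENSMUSG00000052981.6, GRCm38, chr13:69702832-69739889, minus strand) came nearest to a call after Otud1. It had 3429 to 3901 (median 3730) normalized counts in controls, 3359 to 3566 (median 3497) with duloxetine, 3162 to 3935 (median 3490) with R. flavefaciens and 2968 to 3486 (median 3123) with both treatments, and all groups overlapped. The log2 fold change against control was -0.22 (SE 0.0482, limma adjusted p = 0.0519, exact permutation p = 0.00433), and its DESeq2 adjusted p was 0.00421. Usp9x had 5198 to 6681 (median 5811) normalized counts with both treatments and -0.23 (SE 0.0844, limma adjusted p = 0.186, exact permutation p = 0.00433). In the fit without mice 8_4 and 9_3, which belong to neither group but enter the estimate of the spread, Otud1, Ube2ql1 (limma adjusted p = 0.0194) and Usp9x (limma adjusted p = 0.0304) were called, where 2.26% of all genes were called. Depth differed between these 2 groups (exact permutation p = 0.00433), so depth and treatment cannot be fully told apart in a fit that holds both. With depth as a covariate 4 members were lower past the threshold, Otud1, Ube2ql1, Usp31 and Ube4b, the last pair named here after their values were seen, and 2.11% of all genes were called. The same rule called 1 member by edgeR and 0.114% of all genes, 2 by DESeq2 and 1.45%, 5 by DESeq2 on the 12 mice compared and 4.66%, 2 with the length trend removed and 0.421%, and an adjusted p under 0.1 gave 2 and 0.841%.

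Among the other members with the smallest p-values, Usp21 had -0.18 (limma adjusted p = 0.134) and Usp11, a nuclear deubiquitinase, -0.17 (limma adjusted p = 0.126). On the higher side Usp40 had 0.25 (limma adjusted p = 0.227), Usp3, which acts on histones, 0.20 (limma adjusted p = 0.234), and Ube2r2, a partner of cullin ligases, 0.11 (limma adjusted p = 0.269). None of these 5 passed the threshold.

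Duloxetine against control called 0 members and 0% of all genes by limma, with 0 members by edgeR and 0 by DESeq2, which called 0.00668% of all genes. No member's groups were without overlap, where 0.167% of all genes were lower and the same share higher without overlap. At an unadjusted p under 0.05 there was 1 lower member, Otud1, and 1 higher, Ube2l3, against 1.63% and 2.2% of all genes. Ube2l3, a partner of HECT and RBR ligases, averaged 969 ± 41.9 (SD, n = 6) normalized counts in controls and 1043 ± 32 with duloxetine, with a log2 fold change of 0.11 (SE 0.0448, limma adjusted p = 1, exact permutation p = 0.00649). Next in order were Ube2d1 (0.059), Usp40 (0.10) and Ube2l6 (0.13) on the higher side and Usp37 (-0.093), Usp42 (-0.11) and Usp8 (-0.10) on the lower side, each with a limma adjusted p of 1. Of the 100 members 66 were lower, against 51% of all genes, a split that became 47 lower and 53 higher with the 75th percentile rescaling (all genes 41.6% lower) and 50 each with quantile normalization (all genes 50.9% lower).

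Both treatments against duloxetine called 0 members and 0% of all genes by limma, with 0 members by edgeR and 0 by DESeq2, which called 0.00668% of all genes. No member's groups were without overlap, where 0.127% of all genes were lower and the same share higher without overlap. At an unadjusted p under 0.05, 5 members were lower and 0 higher, against 2.88% and 3.02% of all genes. With the 75th percentile rescaling these were 2 lower and 3 higher members, against 2.19% and 3.58% of all genes, and with quantile normalization 2 lower and 2 higher, against 2.81% and 2.96%. Ube2ql1 had the smallest p-value, with -0.14 (SE 0.0482, limma adjusted p = 0.816, exact permutation p = 0.00649), and Usp16, a histone deubiquitinase, led the higher side with 0.14 (SE 0.0693, limma adjusted p = 0.818, exact permutation p = 0.026).

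The main effect of R. flavefaciens called 0 members by limma and 0 by edgeR, where 0.0267% of all genes were called by limma. DESeq2 called Usp9x, Ubr4 and Ubr1, all lower, where it called 2.41% of all genes. Leaving mice 8_4 and 9_3 out, limma called 0 members and 0.02% of all genes, with the length trend removed 0 and 0.0602%, and at an adjusted p under 0.1 2 and 1.34%. At an unadjusted p under 0.05, 26 members were lower and 4 higher, against 10.4% and 7.68% of all genes, with Usp9x at -0.24 (limma adjusted p = 0.0983) and Ube2r2 at 0.09 (limma adjusted p = 0.18) as the leading genes. With the 75th percentile rescaling these were 19 lower and 4 higher members, against 8.49% and 9.53% of all genes, and with quantile normalization 15 lower and 5 higher, against 8.95% and 8.11%. Leaving out mice 8_4 and 9_3 they were 11 lower and 2 higher, against 5.86% and 4.45%, and with the length trend removed 10 lower and 8 higher, against 7.16% and 5.5%.

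In the main effect of duloxetine 11 members were lower and 4 higher at an unadjusted p under 0.05, against 7.49% and 7.44% of all genes, and Usp40 led the higher side with 0.24 (limma adjusted p = 0.0955). With the 75th percentile rescaling these were 6 lower and 8 higher members, against 4.37% and 9.7% of all genes, and with quantile normalization 7 lower and 6 higher, against 7.15% and 6.28%. For the main effect of duloxetine, edgeR called 1 member and 0.935% of all genes, DESeq2 4 and 2.12%, limma 3 and 2.02% without mice 8_4 and 9_3, 2 and 1.43% with the length trend removed, and 4 and 2.5% at an adjusted p under 0.1. The interaction called 0 members and 0% of all genes by limma, and 0 members by edgeR and DESeq2. There 4 members were lower and 7 higher at an unadjusted p under 0.05, against 3.67% and 3.86% of all genes, with Usp48 at 0.27 (limma adjusted p = 0.639) and Ube2s at -0.20 (limma adjusted p = 0.639).

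Class by class, the median over the members was taken within each mouse, as a log2 deviation from the mean of 24 mice. Ligase medians lay between 0.047 and 0.076 (median 0.056) in controls, -0.0082 and 0.094 (median 0.019) with duloxetine, -0.23 and 0.03 (median -0.03) with R. flavefaciens, and -0.11 and 0.074 (median -0.029) with both treatments. For ligases, controls and R. flavefaciens mice did not overlap, and mouse 9_3 set the lower end. Deubiquitinase medians lay between 0.02 and 0.042 (median 0.034) in controls and -0.16 and 0.03 (median -0.0012) with R. flavefaciens, with overlap. E2 medians lay between -0.026 and 0.024 (median 0.00075) in controls, within the R. flavefaciens range between -0.071 and 0.061 (median 0.04).

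As medians of fold changes against control, E2 enzymes had 0.0053 with duloxetine, 0.029 with R. flavefaciens and -0.012 with both, the last of which was 0.02 with the 75th percentile rescaling. Ligases had -0.024, -0.12 and -0.10 in the same order. Deubiquitinases had -0.016, -0.062 and -0.048, the first of which was 0.0017 and the last -0.016 with that rescaling. The median over all genes tested was -0.0018, 0.0031 and 0.00072, and the 3 comparisons share the control mice. After leaving out mice 8_4 and 9_3 the R. flavefaciens values were 0.036 for E2 enzymes, -0.059 for ligases and -0.021 for deubiquitinases, and 50 of 100 members were lower in place of 61.

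**Figure D5:**
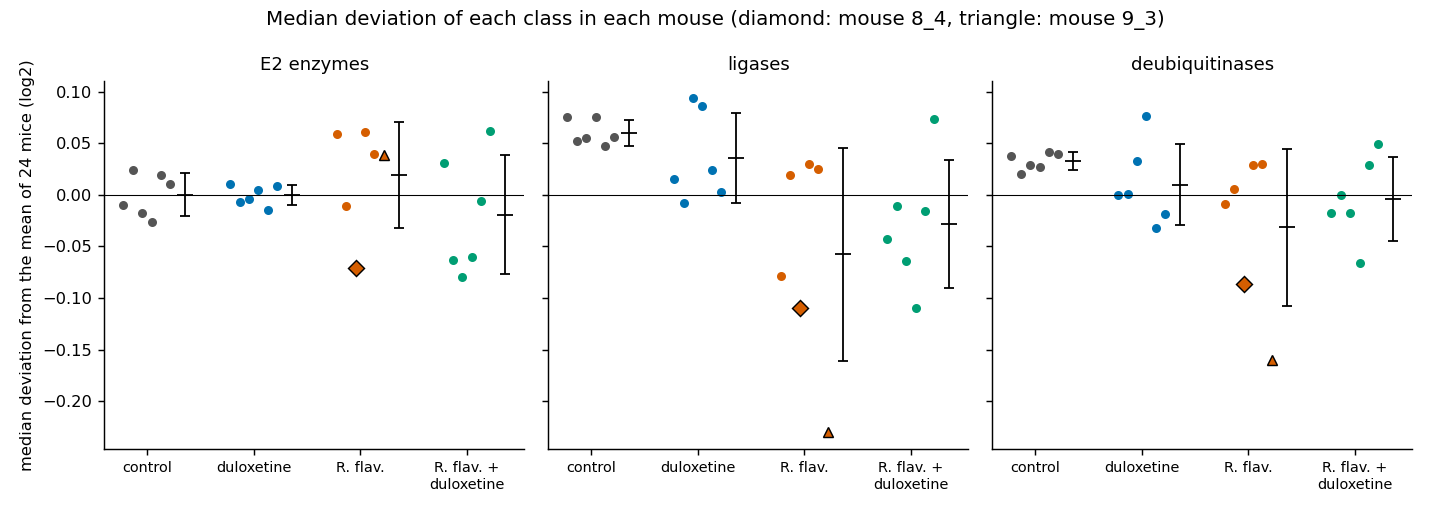
Median log2 deviation from the mean of 24 mice over the tested E2 enzymes, ligases and deubiquitinases, with 1 point per mouse and the mean ± SD of each group (n = 6); separate symbols mark R. flavefaciens mice 8_4 and 9_3. The ligase medians of controls lie in a narrow band from 0.047 to 0.076, and those of the R. flavefaciens mice reach -0.23 in mouse 9_3.

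Among members chosen for a known role, Otud1 was the only one past the limma threshold in the 4-group fit of all mice with no block or covariate. These members were chosen with earlier results of these data known, so the place of Otud1 among them is not separate evidence. Uchl1 had 6817 to 7792 (median 7443) normalized counts in controls and 7053 to 9540 (median 7631) with R. flavefaciens, the highest in mouse 9_3, and a log2 fold change of 0.11 (95% interval -0.0083 to 0.23). In both treatments against R. flavefaciens, Uchl1 had -0.18 (SE 0.0572, limma adjusted p = 0.0787, exact permutation p = 0.0195), with a DESeq2 adjusted p of 0.0402. The limma values without mice 8_4 and 9_3 were 0.061 (limma adjusted p = 0.747) against control and -0.14 (limma adjusted p = 0.127) against R. flavefaciens. Ube3a, the ligase lost in Angelman syndrome, had -0.12 (95% interval -0.21 to -0.021) with R. flavefaciens against control (limma adjusted p = 0.164) and -0.053 (95% interval -0.15 to 0.041) with both treatments, and in the former comparison -0.071 (limma adjusted p = 0.671) without that pair. Exons of Ube3a share 2025 bases with Gm44560, 1803 with Snhg14 and 1796 with 9330162G02Rik, all on the opposite strand, with the same uncertainty as for Usp40. The same holds for Usp14 (2169 bases with Thoc1), Ube2l3 (1670 with Ydjc), Ubr1 (308 with AV039307) and Uchl1 (295 with Uchl1os), and Ube2v1 shares 1673 bases with Gm20431 on its own strand. Exons of Ube2g2, Ube2s, Usp16, Usp18, Usp30 and Usp37 also overlap other genes.

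Usp14 and Uchl5, deubiquitinases of the proteasome, had -0.10 (95% interval -0.23 to 0.028) and 0.016 (95% interval -0.10 to 0.13) with R. flavefaciens against control. Usp30, a deubiquitinase of mitochondria, had 0.039 (95% interval -0.055 to 0.13). Of the conjugating enzymes, Ube2m had 0.067 (95% interval -0.046 to 0.18) and Ube2k, which builds chains, -0.023 (95% interval -0.12 to 0.07). Of the abundant members, Usp22 had -0.13 (95% interval -0.23 to -0.038), Usp5 0.028 (95% interval -0.072 to 0.13), Ubr3 -0.19 (95% interval -0.36 to -0.03) and Ube3b 0.0049 (95% interval -0.082 to 0.091). The limma adjusted p was 0.125 for Usp22 and 0.178 for Ubr3, the genes of this paragraph whose intervals exclude 0. Without mice 8_4 and 9_3 their values were -0.082 (limma adjusted p = 0.604) and -0.053 (limma adjusted p = 0.836). Usp14 shares 2169 exon bases with Thoc1 on the opposite strand.

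The rest of the pathway was read from 9 lists, and in the main fit limma called 0 of their genes in the 3 comparisons with control. Of list genes called in other comparisons, Psmc3 and Sqstm1 were called for both treatments against control in other settings. Without mice 8_4 and 9_3 they had -0.16 (limma adjusted p = 0.0386) and -0.15 (limma adjusted p = 0.0384), where 2.26% of all genes were called. With the length trend removed they had -0.19 (limma adjusted p = 0.0333) and -0.16 (limma adjusted p = 0.042), where 0.421% were called. Of 35 proteasome subunit genes, 33 were higher with R. flavefaciens against control (median 0.10), 18 of them at an unadjusted p under 0.05 (over all genes 8.86%), and the core subunit Psma7 had the smallest p-value (0.21, limma adjusted p = 0.0727). In both treatments against R. flavefaciens all 35 were lower (median -0.12), and 4 fell past the threshold (over all genes 49.5% were lower and 2.23% were called). The ATPase subunit Psmc4 had 951 to 1131 (median 1026) normalized counts with R. flavefaciens and 804 to 939 (median 898) with both, without overlap, and -0.23 (limma adjusted p = 0.0171). The others were Psmc3, with -0.21 (limma adjusted p = 0.0171), the core subunit Psmb4, with -0.23 (limma adjusted p = 0.0344), and Psmd13, with -0.21 (limma adjusted p = 0.0394). All 4 calls were lost with only the mice of the groups compared in the limma fit, which called 0% of all genes.

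Proteasome transcripts were short, with a median of 1581 bases, and all genes under 2000 bases had a median of 0.11 with R. flavefaciens against control. In both treatments against R. flavefaciens, 2315 of those 3571 short genes were lower, with a median of -0.06. With the length trend removed, 23 of the 35 proteasome genes were higher with R. flavefaciens against control (median 0.021). In that setting 34 were lower with both treatments against R. flavefaciens (median -0.08), with the same 4 genes called. Without mice 8_4 and 9_3 the medians were 0.083 and -0.094, and Psmc3 and Psmc4 remained called.

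The 22 HECT ligases outside the naming rule were all lower with R. flavefaciens against control (median -0.14), 12 of them at an unadjusted p under 0.05 (over all genes 49.2% were lower, 10.8% at that p), and Herc2 had the smallest p-value (-0.31, limma adjusted p = 0.0806). Their median length was 5472 bases, and of all 4406 genes of 4000 to 8000 bases 3125 were lower, with a median of -0.065. With the length trend removed 20 were lower (median -0.076), and without mice 8_4 and 9_3 19 were lower (median -0.068).

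In the same comparison the 4 ubiquitin precursor genes were all higher (median 0.14, with Rps27a at 0.21, limma adjusted p = 0.168). Their median length was 1145 bases, and of all 3571 genes under 2000 bases 727 were lower, with a median of 0.11. The median log2 fold change was -0.0069 for 10 E1 enzymes (Uba6, -0.17, limma adjusted p = 0.313) and 0.02 for 5 other E2 enzymes (Birc6, -0.36, limma adjusted p = 0.0727). It was -0.0029 for 25 genes of the cullin-RING core and the COP9 signalosome (Rnf7, 0.23, limma adjusted p = 0.073) and -0.055 for 13 RBR ligases (Rnf217, -0.20, limma adjusted p = 0.164). For 22 other deubiquitinases it was -0.011 (Vcpip1, -0.23, limma adjusted p = 0.108) and for 16 ubiquitin receptors with p97 -0.048 (Stam, -0.12, limma adjusted p = 0.164).

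Outside the proteasome, 2 list genes were called in both treatments against R. flavefaciens, where 2.23% of all genes were called. Neither call remained with only the mice of the groups compared in the limma fit, which called 0% of all genes. Mysm1, a histone deubiquitinase of the JAMM type, had 310 to 400 (median 371) normalized counts with R. flavefaciens and 424 to 484 (median 448) with both, without overlap, and rose by 0.31 on the log2 scale (limma adjusted p = 0.0188). It also rose in the main effect of duloxetine, by 0.19 (limma adjusted p = 0.0428). Sqstm1, the autophagy receptor p62, had 5339 to 5989 (median 5460) and 4798 to 5250 (median 4995), without overlap, and fell by 0.15 (limma adjusted p = 0.0495). Against R. flavefaciens, leaving out mice 8_4 and 9_3 gave 0.22 (limma adjusted p = 0.0609) for Mysm1 and -0.13 (limma adjusted p = 0.0678) for Sqstm1, and removing the length trend gave 0.25 (limma adjusted p = 0.0224) and -0.14 (limma adjusted p = 0.042). For the main effect of duloxetine on Mysm1 these were 0.15 (limma adjusted p = 0.0656) and 0.18 (limma adjusted p = 0.0243).

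Markers of cell types differed between mice as well, and their part in the results for ubiquitin genes was not tested. All 8 excitatory and all 8 inhibitory neuron markers were listed, with Camk2a and Gad1 as the most abundant. The excitatory sum was 103252 ± 3741 (SD, n = 6) normalized counts in controls and 104705 ± 6464 with R. flavefaciens, where 2 of 8 were higher (Slc17a6, -0.51, limma adjusted p = 0.0727). At an unadjusted p under 0.05, 1 excitatory marker was higher and 2 were lower, against 8.86% and 10.8% of all genes. The inhibitory sum was 11017 ± 505 and 12041 ± 421, with 6 of 8 higher, 4 of them at that p (Sst, 0.34, limma adjusted p = 0.0727). Microglial markers, led by Csf1r in abundance, summed to 4440 ± 255 in controls, 4943 ± 453 with duloxetine, 5049 ± 408 with R. flavefaciens and 5214 ± 695 with both treatments. All 8 were higher with R. flavefaciens against control, 5 of them at an unadjusted p under 0.05 (C1qb, 0.39, limma adjusted p = 0.073), and all 8 with both treatments, 7 of them at that p. Over all genes, 8.86% and 8.08% were higher at that p in these comparisons.

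Astrocyte markers, with Aldoc most abundant, summed to 20375 ± 1227 in controls and 22656 ± 1912 with R. flavefaciens. Of these 7 of 8 were higher, 3 of them at an unadjusted p under 0.05, where 8.86% of all genes were (S100b, 0.30, limma adjusted p = 0.093). Oligodendrocyte markers, with Mbp most abundant, ranged from 14388 to 39006 in controls and from 12524 to 46882 with R. flavefaciens, with 7 of 8 higher (Cnp, 0.19, limma adjusted p = 0.793). Endothelial markers, with Flt1 most abundant, ranged from 3283 to 3870 in controls and from 3686 to 4313 with R. flavefaciens, with 7 of 8 higher (Itm2a, 0.18, limma adjusted p = 0.403).

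Striatal markers, with Ppp1r1b most abundant, summed to 1750 ± 242 and 2256 ± 1428, with 5 of 8 higher (Tac1, 0.42, limma adjusted p = 0.0965), and without mouse 8_4 the R. flavefaciens mice ranged from 1339 to 2274. Of 8 choroid plexus markers 4 were in the table, and Folr1, Kcne2, Aqp1 and Otx2 were not listed. Those 4 summed to 68.01 ± 13.6 and 208.5 ± 304, with Kl most abundant and 3 of 4 higher (Ttr, 3.34, limma adjusted p = 0.107), and without mouse 8_4 the range with R. flavefaciens was 32.1 to 123. Of 7 blood markers 5 were in the table, without Slc4a1 and S100a8. All 5 of 5 were higher, 4 of them at an unadjusted p under 0.05, where 8.86% of all genes were (Hbb-bt, 0.90, limma adjusted p = 0.144). They summed to 349 ± 65.7 in controls and 598.4 ± 204 with R. flavefaciens, with Hbb-bs most abundant.

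Counts of the same lists in other comparisons follow, each with the numbers that were higher and lower at an unadjusted p under 0.05. Those for both treatments against duloxetine and for the interaction are not given. Shares of all genes at that p stand with the members of each comparison above. With duloxetine against control, 5 of 8 excitatory (0 and 1), 3 of 8 inhibitory (1 and 0), 8 of 8 astrocyte (0 and 0), 8 of 8 oligodendrocyte (0 and 0), 8 of 8 microglial (4 and 0), 6 of 8 endothelial (1 and 0), 1 of 8 striatal (0 and 0), 3 of 4 choroid plexus (0 and 0) and 5 of 5 blood markers (0 and 0) were higher. In the main effect of duloxetine these were 4 of 8 excitatory (1 and 0), 4 of 8 inhibitory (1 and 1), 4 of 8 astrocyte (1 and 0), 7 of 8 oligodendrocyte (0 and 0), 8 of 8 microglial (3 and 0), 7 of 8 endothelial (2 and 1), 0 of 8 striatal (0 and 0), 1 of 4 choroid plexus (0 and 0) and 5 of 5 blood markers (0 and 0). In the main effect of R. flavefaciens, 3 of 8 excitatory (1 and 3), 8 of 8 inhibitory (3 and 0), 8 of 8 astrocyte (3 and 0) and 8 of 8 oligodendrocyte markers (0 and 0) were higher. So were 8 of 8 microglial (5 and 0), 7 of 8 endothelial (0 and 0), 7 of 8 striatal (1 and 0), 2 of 4 choroid plexus (2 and 0) and 5 of 5 blood markers (4 and 0).

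With both treatments against control, 3 of 8 excitatory (0 and 1), 7 of 8 inhibitory (2 and 0), 8 of 8 astrocyte (4 and 0), 7 of 8 oligodendrocyte (0 and 0), 8 of 8 microglial (7 and 0), 7 of 8 endothelial (2 and 0), 4 of 8 striatal (0 and 0), 2 of 4 choroid plexus (1 and 0) and 5 of 5 blood markers (5 and 0) were higher. Against R. flavefaciens they were 5 of 8 excitatory (1 and 0), 3 of 8 inhibitory (0 and 2), 3 of 8 astrocyte (1 and 0), 3 of 8 oligodendrocyte (0 and 0), 5 of 8 microglial (0 and 0), 7 of 8 endothelial (1 and 1), 2 of 8 striatal (0 and 1), 0 of 4 choroid plexus (0 and 0) and 2 of 5 blood markers (0 and 0). All microglial and blood markers had higher means on the log2 scale with duloxetine, alone or with bacteria, than in controls. In the comparisons whose marker counts are given, limma called 0 markers in the main fit.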

How the data were processed

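Poly(A) RNA of 24 mice was sequenced, and 1 table of genes by mice was used here. Its signal values were deposited by the authors as read counts divided by DESeq2 size factors. The submitters' processing notes name TopHat2 2.1.0, Bowtie2 2.2.6, DESeq2 1.18.1 and mm9, while the study's methods name GRCm38. Positions in the table match GRCm38 (GENCODE vM21) for 14253 of 15438 shared gene IDs and for 97 of the 101 members. The counting program and its strand setting are not given in the sources used here.

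Values were tested as log2(value + 1) with limma 3.58.1 (intensity trend) in 1 fit of 4 groups, over the 14974 genes that averaged 10 or more in the table, with Benjamini-Hochberg adjustment within a comparison and a threshold of 0.05. Fold changes are on that scale, which understates changes of low genes. Main effects average over the other treatment. Single genes also had an exact permutation test. Whole reads were recovered for 99.989% of nonzero values (tolerance 0.0051) and tested with DESeq2 1.42.0 and edgeR 4.0.16 as alternatives. Other alternatives changed the pseudocount, filter, scaling, mice in the fit, threshold, length or GC trend, depth as a covariate and label numbers as blocks. Transcript length was that of the longest coding transcript in GENCODE vM21.

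The members and lists were chosen with earlier results of these data known. Named members are those called, the 4 smallest p-values in each direction against control and 1 in each direction elsewhere, the 2 highest per family, and those with known roles; of the other lists, the called genes and the smallest p in R. flavefaciens against control. Exons of 35 members overlap another gene. Some genes that these rules name are not reported here.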

Additional observations from a re-analysis of the deposited data

Results flagged for a closer look

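The values named here stood farther from the rest of their group of 6 mice than Dixon's test allows at 95%. Of 188 groups tested 12 did so, and chance gives about 1 in 20. Mouse 9_3 of the R. flavefaciens group was apart for Ubr4 (2640 normalized counts), where it was lowest, and for Ube2r2 (1420), where it was highest. Duloxetine mouse 6_3 was highest for Ube2m (1912), Ube2s (732) and Usp30 (563). Summed choroid plexus markers were apart in R. flavefaciens mouse 8_4 (825) and duloxetine mouse 5_3 (173). Summed striatal markers were apart in R. flavefaciens mouse 8_4 (5100), control mouse 2_3 (2202) and mouse 11_4 of the mice given both treatments (3061). Summed blood markers were highest, and apart, in R. flavefaciens mouse 8_4 (988) and duloxetine mouse 6_3 (984). The interaction test found 0 members whose duloxetine effect differed with and without bacteria.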

How the results depend on the processing

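No alternative reversed a called value. For R. flavefaciens against control, limma called 0 members, a random block for mice that share the first label number called 2 (Usp34 and Usp9x), DESeq2 called 6, and an adjusted p under 0.1 gave 5. For both treatments against control the count was 1. It was 2 with a minimum mean of 50 (0.251% of all genes called), 3 with only the 12 mice compared (1.31%), 2 with the random block (Otud1 and Ube2ql1, 0.394%), 2 with the length trend removed, 2 by DESeq2, 5 by DESeq2 on those 12 mice, 3 without mice 8_4 and 9_3, and 2 at an adjusted p under 0.1. For both treatments against R. flavefaciens the count was 4. It was 0 with only the 12 mice compared, 3 by DESeq2 on those mice, 2 with the length trend removed, 2 with the GC trend removed, 8 by DESeq2 and 11 at an adjusted p under 0.1. For the main effect of R. flavefaciens, 0 became 3 by DESeq2 and 2 at an adjusted p under 0.1. For the main effect of duloxetine, 1 became 2 with a minimum mean of 50 (1.51% of all genes), 2 with the random block (1.7%), 2 with the length trend removed, 4 by DESeq2, 3 without mice 8_4 and 9_3, and 4 at an adjusted p under 0.1. The median of E2 enzymes with duloxetine against control became 0.023 with the 75th percentile rescaling. The causes were not tested. Over the counts, medians and named genes, 687 values from other settings kept their direction and side of the threshold, 16 lost and 27 gained a call, and 10 counts or medians moved; with 1 mouse left out these were 1085, 21, 17 and 5. Leaving out 1 mouse gave 0 to 6 members for R. flavefaciens against control (0% to 4.11% of all genes), 0 to 2 for both against control (0.0334% to 1.03%), 1 to 7 for both against R. flavefaciens (0.314% to 3.85%), 1 to 4 for the main effect of duloxetine (0.307% to 1.74%), 0 to 1 for that of R. flavefaciens (0.00668% to 0.902%), and 0 for duloxetine against control, both against duloxetine and the interaction. Against R. flavefaciens, 7 were called without mouse 8_4 (3.85% of all genes) and 1 without 11_3 (0.314%) or 12_2 (1.06%). The medians against control with R. flavefaciens, both treatments and duloxetine ran from 0.016 to 0.048, -0.034 to -0.0062 and -0.0024 to 0.01 for E2 enzymes, from -0.14 to -0.084, -0.12 to -0.08 and -0.043 to -0.011 for ligases, and from -0.068 to -0.039, -0.071 to -0.028 and -0.03 to -0.016 for deubiquitinases. The fits without both mice and with the GC trend removed were chosen after seeing the data. The fits with depth as a covariate and with the second label number as a replicate block were also added then. With depth as a covariate, members called were 3 for R. flavefaciens against control, 4 for both against control and 1 for the main effect of R. flavefaciens (Usp9x, 1.55% of all genes), and the median of ligases for both against control was -0.17. Depth differed between groups and overlapped, with an exact permutation p of 0.00433 for duloxetine and for both treatments against control. In these comparisons depth as a covariate cannot be fully told apart from treatment.

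The first label number is never shared between groups, and the consensus correlation of mice with the same first number was -0.0451. Being negative, it made the fits with this random block less strict for differences between groups. The second number recurs between and within groups, and the sources used here do not say what it marks. Deviations from group means had a median correlation over genes of 0.00817 (from -0.381 to 0.328) in 53 pairs of mice from different groups with the same second number and 0.00125 in 163 with another, so the number was not taken to pair mice. With it as a replicate block, 0 members (0.00668% of all genes) were called for both against control. Otud1 there had a limma adjusted p of 0.0747. Against R. flavefaciens 2 were called (Otud1 and Usp21, 0.902%), and for the main effect of duloxetine 1 was (0.401%).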
